A study of Homo sapiens with 12 samples.

Results

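The JUN family consists of JUN, JUNB and JUND, and its 3 genes were studied here through the accessible regions around them. Regions were taken from ATAC-seq peak lists of KO-52 cells when they overlapped a gene body or the 50 kb on either side of it. This gave 98 of 355515 common regions, 30 around JUN, 35 around JUNB and 33 around JUND. A common region is the stretch formed by joining overlapping peaks from all 6 lists.

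KO-52 cells come from an acute myeloid leukemia (AML) and carry mutations in both alleles of CEBPA. The cells were transduced with p42, the full-length CEBPA isoform, with p30, the shorter isoform that predominates in CEBPA-mutant AML, or with an empty vector (EV). Each of these 3 lines received either DMSO or tunicamycin (Tm), an inhibitor of N-glycosylation that causes ER stress, at 2 µg/mL for 8 h. Nuclei were transposed with an in-house Tn5, 50000 per replicate, and 2 replicates of each of the 6 conditions gave 12 libraries. All lines carry the endogenous CEBPA mutations, so p42 and p30 are added on top of them. The methods describe isoforms fused to ERT2 and switched on by 4-OHT for long-term expression, but whether the ATAC-seq cells carried this version is not given in the sources used here. The authors called peaks on the pooled replicates, and each condition is therefore 1 list with no spread between replicates. All intervals below cover counting error only.

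JUN proteins are basic leucine zipper factors that form AP-1 by pairing with each other or with FOS and ATF proteins. JNK kinases phosphorylate JUN in its transactivation domain, and JUN in turn can drive its own promoter through a CRE-like element. JUN and JUNB are immediate early genes induced by growth factors, inflammation and stress, whereas JUND is expressed more constitutively.

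The promoter sequences are shown because they are where a family member would be directly switched, and because they differ in their CRE and CCAAT elements. They are RefSeq sequences (GRCh38.p14, identical to hg38 at these positions) upstream of the annotated start, 5′ to 3′ on the strand of the gene, and stop before the transcribed leader. Capitals mark the CRE TGACGTCA, the jun-type CRE TGACATCA and CCAAT. JUN lies on the minus strand of chromosome 1 (chr1:58784049-58784297 is shown), JUNB on the plus strand of chromosome 19 (chr19:12791236-12791485) and JUND on the minus strand of chromosome 19 (chr19:18281623-18281872).
JUN promoter: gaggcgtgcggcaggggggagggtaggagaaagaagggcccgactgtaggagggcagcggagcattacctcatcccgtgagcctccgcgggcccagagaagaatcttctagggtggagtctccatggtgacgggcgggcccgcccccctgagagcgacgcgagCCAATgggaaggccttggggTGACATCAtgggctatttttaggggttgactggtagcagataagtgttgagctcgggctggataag
JUNB promoter: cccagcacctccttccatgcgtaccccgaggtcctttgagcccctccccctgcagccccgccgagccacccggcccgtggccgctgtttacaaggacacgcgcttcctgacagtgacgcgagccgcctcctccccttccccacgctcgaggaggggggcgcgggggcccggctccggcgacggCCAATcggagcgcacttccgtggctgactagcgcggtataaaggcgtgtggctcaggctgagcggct
JUND promoter: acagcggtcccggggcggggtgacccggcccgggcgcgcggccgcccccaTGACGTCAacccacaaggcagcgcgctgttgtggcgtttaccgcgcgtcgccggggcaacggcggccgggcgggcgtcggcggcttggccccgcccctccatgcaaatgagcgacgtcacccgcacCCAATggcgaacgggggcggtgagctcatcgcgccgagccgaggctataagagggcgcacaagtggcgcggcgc

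In the JUN promoter the jun-type CRE spanned positions −67 to −60 from the start site, and a CCAAT box began at −87. In the JUND promoter a full CRE spanned −200 to −193 and a CCAAT box began at −74. The JUNB promoter held a CCAAT box from −67 and neither CRE word. Of 35116 RefSeq promoters, 1.65% held the CRE, 2.37% the jun-type CRE and 32% CCAAT on either strand. The GC content of the 3 printed stretches was 61.8% for JUN, 70.8% for JUNB and 74.8% for JUND. SP1 words (GGGCGG, either strand) occurred 2 times in JUN and 5 times in JUND, and 42.6% of all promoters held at least 1. A match describes the letters and says nothing about which protein was bound in these cells.

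The gene bodies are short. JUN spans chr1:58776845-58784048, JUNB spans chr19:12791486-12793315 and JUND spans chr19:18279694-18281622 (hg38, GENCODE 44). JUN sits among long non-coding RNA genes, with LINC01135 starting in the opposite direction, and the start of JUN was the nearest coding start for 24 of its 30 regions. JUNB and JUND have close neighbours, and the same was true for 7 of 35 and 7 of 33 regions. For JUNB these neighbours include HOOK2, PRDX2, THSD8 and RNASEH2A, and for JUND they include IQCN and LSM4. Most regions around JUNB and JUND therefore lie nearer to the coding start of another gene than to that of the family member.

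Peak numbers and depth differed between the lists, and this bears on every comparison. The lists held 187704 to 254239 peaks and an estimated 22250000 to 29980000 tags, with EV in DMSO the shallowest and p42 in DMSO the deepest. Tags are the fragment ends that cover a peak's summit, recovered from the deposited fold and −log10 p as whole numbers, and rates are given per 10000000 tags. As a check of the cell type, all 10 myeloid and progenitor genes tested had a promoter region with a peak in all 6 lists. Of genes of other lineages, CD79A, PAX5, CD3E and CD3D also had one in all 6 lists. ALB, CDH1 and NEUROD1 had promoter peaks in some lists only, while the erythroid genes GATA1 and HBB had none in any list. Of 20033 coding genes, 15162 had a promoter region with a peak in all 6 lists, so this check separates lineages only weakly.

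Of the 98 regions, 46 had a peak in all 6 lists, which is 46.9% (95% Wilson interval 37.4 to 56.7%) against 32.2% of all common regions. Another 20 (20.4%, 13.6 to 29.4%) were found in a single list, against 34.3% of all regions. The share in all 6 lists was 40% around JUN (24.6 to 57.7%), 48.6% around JUNB (33 to 64.4%) and 51.5% around JUND (35.2 to 67.5%). For comparison, it was 57% (48.8 to 64.9%) for 142 regions around the FOS family and 49.2% (41.9 to 56.5%) for 177 regions around ATF and BATF partners. These intervals overlap.

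Start sites of any gene lay within 1 kb of 44 of the 98 regions (44.9%), against 15.5% of all common regions. Among those 44 regions, 20 were in all 6 lists (45.5%, 31.7 to 59.9%), beside 50.9% for start-site regions in general. Away from start sites, 26 of 54 were in all 6 lists (48.1%, 35.4 to 61.1%), and this interval lay above the 28.8% found for such regions in general. The median percentile of the regions within their list was 59.8 to 68.2, against 50.5 to 52.1 for all regions. A percentile is the share of peaks in the same list with a lower −log10 q.

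The JUN promoter had a peak of high rank by −log10 q in every condition. Its main region (chr1:58783739-58784443, over the start site and an exon of LINC01135) had 40, 46 and 54 tags in EV, p30 and p42 cells in DMSO, and 50, 49 and 46 tags after Tm. Per 10000000 tags this was 18, 17.3 and 18 in DMSO and 19.9, 21.2 and 18.1 after Tm. The percentiles were 87.5, 90.4 and 94 in DMSO, and 93.6, 93.5 and 89.7 after Tm. The lowest and highest list, EV and p42 in DMSO, had counting intervals of 69 to 98.3 and 82.5 to 99.6, which overlap widely. The p42 list in DMSO was also the longest. With all lists cut to equal size, its value was 91.9, below 93.2 in EV and 93.5 in p30 cells after Tm. A pair of smaller peaks lay within 1 kb of the start, at 0.72 kb in p30 and p42 cells in DMSO and at 0.43 kb in p42 cells after Tm, all at or below the 13th percentile of their list.

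The JUNB promoter had the lowest rank of the family in 5 of the 6 lists, all but p42 after Tm, and the widest range. Its region (chr19:12791285-12791550, over the start site) had 27, 37 and 39 tags in EV, p30 and p42 cells in DMSO, and 37, 31 and 45 tags after Tm. The percentiles were 53.7, 72.6 and 74 in DMSO and 72.4, 62.6 and 83.8 after Tm. At equal list size, p42 cells in DMSO stood at 64.7, below p30 cells at 69.7. EV in DMSO was lowest and p42 after Tm highest, with intervals of 5.9 to 78.6 and 67.1 to 96. JUNB lies in a stretch with a high local background of 5.94 to 7.41 tags, against a median of 0.65 to 0.71 over all peaks. The background of the JUN promoter was also above that median, at 4.19 to 5.6 tags. Ranked by summit tags instead of −log10 q, the same region stood at percentiles 88 to 98.3, and ranked by fold it stood at 15 to 52.7. By fold, the JUN promoter stood at 65.4 to 72.7 and the JUND promoter at 50.6 to 58.2, so their ranks depended on the measure too. A second region 0.3 kb into the gene, over its coding exon, had a peak in p30 and p42 cells in DMSO and in p30 cells after Tm, at percentiles 12.4, 4.5 and 26.3.

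The JUND promoter region was the broadest (chr19:18281070-18282247, covering the start site, coding sequence and the microRNA gene MIR3188). It had 40, 45 and 46 tags in EV, p30 and p42 cells in DMSO, and 38, 43 and 37 tags after Tm. The percentiles were 83.4, 85.8 and 84.9 in DMSO and 78.6, 85.5 and 77.9 after Tm. The 6 values lay within 7.9 points of each other, less than the counting interval of any of them. At equal list size, p42 cells in DMSO stood at 79.6, below EV at 83.4 and p30 at 84.3. Farther into the gene, a region at 1.2 kb was missing in EV cells in DMSO and ranked at percentiles 15.3 to 47.7 in the other 5 lists.

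To ask whether any condition opened a family promoter further, tag rates were divided between lists and by the median of that ratio over all regions. That median was 0.887 to 1.07 over the 9 comparisons. Between p42 and p30 cells in DMSO, the centred ratio was 1.07 at JUN (95% interval 0.707 to 1.62), 0.958 at JUNB (0.595 to 1.55) and 0.929 at JUND (0.603 to 1.43). After Tm it was 0.887 at JUN (0.58 to 1.35), 1.37 at JUNB (0.849 to 2.24) and 0.813 at JUND (0.509 to 1.29). Tm changed the rate by a ratio of 0.949 at JUN in p42 cells (0.626 to 1.43), 1.15 in p30 cells (0.75 to 1.75) and 1.18 in EV cells (0.761 to 1.83). At JUNB the ratios were 1.29 (0.819 to 2.03), 0.901 (0.54 to 1.49) and 1.29 (0.764 to 2.2), and at JUND 0.896 (0.565 to 1.41), 1.03 (0.66 to 1.6) and 0.894 (0.558 to 1.43). None of the 27 promoter ratios had an interval that left 1. The intervals reached from 0.509 to 2.24, and differences within them were not detectable at this depth.

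The same ratio was taken for every region with a peak in both lists of a comparison. No interval left 1 among 60 regions for p42 against p30 in DMSO, 54 for p42 against EV and 53 for p30 against EV. Over all common regions the share that did was 2.04%, 2.15% and 0.116%. After Tm there was none among 52, 55 and 52 regions, against 1.58%, 1.53% and 0.102% of all regions. Tm against DMSO gave none among 56 regions for p42 cells, 54 for p30 and 52 for EV, against 0.165%, 0.184% and 0.149%. With so few regions, shares of this size amount to at most about 1 region per comparison, so the absence of calls does not set the family apart. The highest ratios were found outside the promoters. A region at 43.88 kb from JUN had 10, 22 and 24 tags in EV, p30 and p42 cells in DMSO, and 20, 15 and 19 after Tm. Its ratio to EV in DMSO was 2.01 for p42 (0.925 to 4.7) and 2.01 for p30 (0.914 to 4.76), and both rest on the same low EV value.

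Presence of a peak was compared next. In DMSO, 16 of the 84 regions with a peak in p42 or p30 cells were found in p42 only, which is 19% (12.1 to 28.7%) against 30.9% of all common regions. Another 8 (9.52%) were found in p30 only, against 14.6%. The p42-only regions had a median percentile of 40.3 in their list and a maximum of 55.5, far below the promoters of JUN and JUND. By gene, 6 of 26 regions around JUN, 5 of 31 around JUNB and 5 of 27 around JUND were p42-only, while 1, 4 and 3 were p30-only. The share of p42-only regions was lower than over all common regions, and the p42 list was the deeper of the pair. At equal list size it was 16%, against 20.8%, and with −log10 q of at least 10 it was 12.5%, against 23.6%. The family's regions lie near start sites more often (44.9% against 15.5%), and the shares were not matched for this.

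Against EV cells in DMSO, 22 of 83 regions were found in p42 only (26.5%, against 35.4% of all regions) and 7 in EV only (8.43%, against 11.2%). Around JUN these were 9 of 25 regions (36%) and 0 of 25. For p30 against EV, 15 of 76 regions were in p30 only (19.7%, against 22.5%) and 8 in EV only (10.5%, against 13.7%). After Tm, 15 of 75 were in p42 and not in p30 (20%, against 26.1%) and 8 the reverse (10.7%, against 15.1%). The p42 and EV lists differed by 12 and 9 of 76 regions (15.8% and 11.8%, against 24.2% and 17.2%). For p30 against EV, the counts were 8 and 12 of 72 (11.1% and 16.7%, against 15.3% and 19.5%). With the lists as deposited, none of these shares over the 3 genes exceeded that of all common regions. Peaks found in only one list of a pair were mostly of low rank, but reached percentile 71.5 for p30 against EV in DMSO and 76.1 for p42 against p30 and against EV after Tm.

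Tm was given to ask how ER stress changes accessibility in each line. In p42 cells, 11 of 87 regions gained a peak after Tm (12.6%, against 11.6% of all regions) and 20 lost one (23%, against 27.5%). In p30 cells, 6 of 74 gained (8.11%, against 13.2%) and 14 lost (18.9%, against 23.6%). In EV cells, 12 of 73 gained (16.4%, against 18.8%) and 9 lost (12.3%, against 16.3%). Losses in p42 cells were 10 of 28 around JUN (35.7%), 8 of 32 around JUNB (25%) and 2 of 27 around JUND (7.41%). The peaks gained in p42 cells had a median percentile of 17.1 and a maximum of 48.7, and those lost a median of 17.8 and a maximum of 60.1. The p42 list after Tm was also shallower than in DMSO.

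The strongest regions of each window, outside the promoters, were found in all conditions. Around JUN they lay at 28.69 kb downstream (percentiles 86.6 to 95 over the 6 lists) and at −31.48 and −32.4 kb, in an exon and an intron of LINC01135 (77.8 to 89.2 and 85.6 to 94.6). Around JUNB they were at the start sites of HOOK2 (−15.82 kb, 90 to 97.8; −25.32 kb, 84.7 to 90.8) and of RNASEH2A, a subunit of ribonuclease H2 (15.06 kb, 89.4 to 95.7). Around JUND they lay between JUND and LSM4 at −23.25 kb (90.6 to 97.6), at the start of LSM4 (−41.56 kb, 88.8 to 93.8) and beyond it at −46.94 kb (95 to 98.9). Each of these 9 regions ranked above the JUNB promoter in every list.

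By the largest difference in percentile between p42 and p30 cells in DMSO, the JUN region at −1.19 kb came first around JUN. It lies in an exon of LINC01135 and had 18, 15 and 29 tags in EV, p30 and p42 cells in DMSO, and 22, 20 and 20 after Tm. The p42 value in DMSO stood above the other 5, with a ratio to p30 of 1.76 (0.912 to 3.53). Next was a region at 14.67 kb, with 11 tags in p42 cells in DMSO, 14 in p42 cells after Tm, 7 in EV cells in DMSO and no peak in p30 cells. In the opposite direction, regions at 57.26 and 56.53 kb ranked higher in p30 cells, with 8 against 5 and 6 against 5 tags. Their nearest coding start was that of MYSM1, 26696 and 27430 bp away. Counting intervals of their percentiles, p30 against p42, were 0 to 76.7 against 0 to 64.4, and 0 to 69.4 against 0 to 64.4.

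Around JUND, a region 21.51 kb downstream (chr19:18260018-18260206, in an exon of IQCN) was the only one of the 98 with a peak in both lists of 1 line and in no list of the others. It had 10 tags in p42 cells in DMSO (percentile 53.3, interval 3.1 to 79.9) and 16 after Tm (76.1, interval 48 to 93.4). A region at 4.01 kb, downstream of the gene, had 25 tags in p42 cells in DMSO and no peak in p30 or EV cells in DMSO, but 24, 17 and 19 tags in EV, p30 and p42 cells after Tm. In the opposite direction, a region in an intron of LSM4 at −36.78 kb had 38, 42 and 30 tags in EV, p30 and p42 cells in DMSO, and 44, 38 and 40 after Tm. Its p42 value in DMSO was lowest of the 6, with a ratio to p30 of 0.649 (0.392 to 1.06).

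Among the 46 regions with a peak in all 6 lists, p42 cells had the highest percentile of the 3 lines in both DMSO and Tm in 21 (45.7%, 32.2 to 59.8%, against 31.8% of all such regions). The share was 11 of 17 around JUNB (64.7%, 41.3 to 82.7%), 8 of 17 around JUND and 2 of 12 around JUN. For p30 cells it was 4 of 46 (8.7%, against 9.28%) and for EV cells 0 of 46 (against 8.24%). Both p42 lists were the longest of their treatment, with 254239 peaks in DMSO and 221501 after Tm. At equal list size the p42 percentiles of the 3 promoters in DMSO were lower, as given above. The count was not repeated at equal list size. The pattern also depended on the measure. By tag rate, p42 was highest under both treatments in 6 of 46 regions (13%, against 15.9%), p30 in 2 (4.35%, against 11%) and EV in 3 (6.52%, against 15.6%), and around JUNB p42 was highest in 3 of 17. A higher rank in p42 cells therefore did not go with a higher tag rate in most of these regions.

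Of these regions, 3 are given with their values, chosen after their values were seen. At JUNB, a region 1.36 kb upstream (chr19:12789762-12790482, in an intron of HOOK2) had 39, 40 and 55 tags in EV, p30 and p42 cells in DMSO, and 40, 39 and 52 after Tm. Its percentiles were 74.6, 72.6 and 87.6 in DMSO and 71.9, 71.8 and 87.1 after Tm. The ratio of p42 to p30 was 1.25 in DMSO (0.817 to 1.93) and 1.26 after Tm (0.815 to 1.96). Downstream of JUNB at 5.22 kb the percentiles were 74.1, 59.9 and 84 in DMSO and 63.1, 69.8 and 81.7 after Tm. At JUND, 29.64 kb downstream, they were 73.3, 67 and 89.5 in DMSO and 74.1, 80.4 and 88.6 after Tm. Both p42 lists stood above the other 4 in all 3 regions, but no interval of their tag-rate ratios left 1. The percentiles of these regions were not recomputed at equal list size. In bulk chromatin, a region open in more cells and one cut more often per cell cannot be told apart, and a missing peak does not show that a region was closed.

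Sequences around the summits of 4 of these regions are shown because they are where p42 ranked highest (JUNB −1.36 kb, JUND 21.51 kb) or where an AP-1 site lay near the summit of a region found in all 6 lists (JUND 27.69 kb and −23.25 kb). They are read from hg38 on the plus strand, 100 bases on each side of the summit, at chr19:12790043-12790243, chr19:18260011-18260211, chr19:18253864-18254064 and chr19:18304577-18304777. Capitals mark AP-1 sites of the TRE type (TGACTCA or TGAGTCA), and the JUNB −1.36 kb and JUND 21.51 kb windows hold neither word.
JUNB −1.36 kb: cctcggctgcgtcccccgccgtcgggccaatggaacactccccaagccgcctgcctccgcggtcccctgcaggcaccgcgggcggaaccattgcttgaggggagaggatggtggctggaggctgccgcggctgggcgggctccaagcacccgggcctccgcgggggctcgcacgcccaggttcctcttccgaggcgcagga
JUND 21.51 kb: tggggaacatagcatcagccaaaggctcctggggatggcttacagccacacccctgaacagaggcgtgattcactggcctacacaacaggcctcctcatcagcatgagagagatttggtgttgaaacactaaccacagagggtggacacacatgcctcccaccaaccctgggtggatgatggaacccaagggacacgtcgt
JUND 27.69 kb: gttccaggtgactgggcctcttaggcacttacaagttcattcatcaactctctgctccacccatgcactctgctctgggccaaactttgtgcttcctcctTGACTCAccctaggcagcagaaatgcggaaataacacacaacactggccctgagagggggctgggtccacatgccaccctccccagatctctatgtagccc
JUND −23.25 kb: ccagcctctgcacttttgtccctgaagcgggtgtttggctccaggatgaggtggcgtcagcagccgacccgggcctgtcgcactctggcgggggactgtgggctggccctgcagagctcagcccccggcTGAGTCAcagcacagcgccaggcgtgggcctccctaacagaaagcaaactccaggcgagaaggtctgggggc

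TRE words on either strand occurred within 100 bp of the summit in 9 of the 98 regions (9.18%, against 9.48% of all common regions). Around JUND there were 6 of these, around JUN 2 and around JUNB 1. A further JUND region in all 6 lists (chr19:18274894-18275159) held a TRE 21 bp from its summit and is not shown above. At 27.69 kb from JUND the TRE began at the summit itself, and the region had 13, 22 and 23 tags in EV, p30 and p42 cells in DMSO and 22, 18 and 23 after Tm. At −23.25 kb it lay 29 bp from the summit, and the region had 41, 40 and 41 tags in DMSO and 42, 46 and 35 after Tm. Neither region had a tag-rate interval that left 1.

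CEBP words (TTGCACAA, TTGCGCAA, TTGTACAA or TTGTGCAA) occurred in 0 of 98 regions, an upper Wilson limit of 3.77%, against 1.85% of all regions. The CEBP:AP1 words ATGTTGCAA and GTGTTGCAA also occurred in 0 of 98, against 0.668%, and so did the ATF4 composite TGATGCAA, against 1.25%. The CRE was found in 1 region (1.02%, against 0.217%), the JUND promoter, and the jun-type CRE in 2 (2.04%, against 1.2%). The JUN promoter element shown above lay outside the 100 bp around its summit. SP1 words were found in 29.6% of the regions (21.5 to 39.3%), against 7.97% of all regions, and CCAAT in 23.5%, against 23.3%. PU.1 words (GAGGAAGT) were found in 2.04%, against 6.86%, and RUNX words (TGTGGT) in 10.2% (5.64 to 17.8%), against 22.5%. These shares were not matched for start sites, which lay within 1 kb of 44.9% of the regions, against 15.5% of all. Of RefSeq promoters, 42.6% held an SP1 word, 11% a RUNX word and 2.17% a PU.1 word. The window search for CArG boxes matched 2.04%, against 1.1%.

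Promoters of the pathway around the family were examined as well. The list held 33 genes, fixed as JNK kinases, scaffolds, phosphatases, AP-1 partners and regulators of JUN protein. All had a promoter region and 32 had one in all 6 lists. Among 20033 coding genes, 15162 had one in all 6 lists, so a promoter peak is common among coding genes. DUSP8, a phosphatase of JNK and p38, was the exception. The kinase gene MAPK8, which encodes JNK1, ranked at percentiles 90.5, 94.2 and 98.2 in EV, p30 and p42 cells in DMSO and 94.7, 96.8 and 98.6 after Tm. The FOS promoter, whose product is the classical partner of JUN, ranked at 77.2, 90.3 and 89 in DMSO and 85, 82.2 and 81.9 after Tm. ATF4, a partner and effector of the stress response, ranked between 90.8 and 96.1, and MEN1, whose product menin binds JUND, between 97.1 and 99.7.

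In DMSO, 9 of the 33 genes had at least 1 promoter region that was a peak for p42 but not for p30 cells (27.3%, against 24.4% of 20033 coding genes), and 4 had the reverse (12.1%, against 15.3%). After Tm, these were 9 (27.3%, against 19.6%) and 5 (15.2%, against 14%). The same gene could have regions of both kinds, as did MAP3K4 in DMSO and MAPK10 after Tm. DUSP16, a JNK phosphatase gene, had a region with 10 tags in p42 and 19 in EV cells in DMSO, a ratio of 0.44 (0.183 to 0.995). This was the single pathway interval that left 1, of 63 promoter regions in that comparison, where 2.15% of all regions did so, and 0 of 61 to 69 regions did so in the other 8. A single call in 63 is close to that share.

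Profiles of the promoters over the 6 lists were compared with those of 15162 coding genes with a promoter region in all lists. By mean percentile, JUN ranked above 52.2% of these genes, JUND above 27.8% and JUNB above 13%. The profiles most like that of JUN belonged to HECA, with a root mean square difference of 0.75 percentile points, and ZNF19, with 0.8. Nearest to JUND were PRR3 and GNL1, which share a region, at 0.84 points, and HEATR5B at 1.72. For JUNB they were IL1B, the gene of interleukin-1β, at 3.3 points, CES5A at 3.67 and KLHL13 at 4. These are descriptions over 6 pooled lists, in which differences of this size are smaller than the counting intervals.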

How the data were processed

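ATAC-seq was performed in KO-52 cells carrying EV, p42 or p30, in DMSO or Tm, with 12 libraries in 6 conditions. Per the methods and labels, the authors used Trim Galore 0.6.6 for trimming, Bowtie2 2.4.4 for alignment (hg38), Picard for duplicates, and MACS2 for peaks of the pooled replicates. Whether reads were shifted for Tn5 is not given in the sources used here.

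The deposited lists give, for each peak, a fold enrichment ratio over local background, −log10 p and −log10 q, and a summit offset in bases. Summit tags were solved from the deposited fold and −log10 p (whole within 0.001), and depth from the lowest background and a genome size of 2700000000 bp. Peaks of all lists were merged into common regions (overlap of at least 1 bp). A region's percentile is the rank of its best peak by −log10 q. Tag-rate ratios were centred on their median over all regions and given exact conditional binomial intervals. Intervals of shares are 95% Wilson, and those of percentiles follow the exact Poisson interval of the tags. With 1 pooled list per condition, no p-value was computed. Promoter regions lie within 1 kb of a GENCODE 44 start, and motif words were searched 100 bp on each side of summits.

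The members and lists were chosen with earlier results of these data known. Regions are named if they lie at a member's promoter, are among the 3 strongest others of a window, or among those with the largest percentile differences between p42 and p30 in DMSO or between Tm and DMSO, or have a peak in both lists of 1 line and no other. Other named regions were chosen after their values were seen. Scripts were tested on simulated data and used Python 3.11.15, numpy 2.4.6, scipy 1.17.1, pandas 2.3.3, pysam 0.24.0 and matplotlib 3.10.9. Alternatives were stricter peaks, equal list sizes, a depth-scaled threshold, a 50% cover, windows of 20 and 100 kb, other rankings, and, chosen after seeing the data, promoter percentiles at equal list size and ratios not centred. The count of regions highest in 1 line was also added after seeing the data. A gene of the marker list is not reported here.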

Additional observations from a re-analysis of the deposited data

Results flagged for a closer look

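After Tm, 9 regions around the family gained a peak in 1 line and lost it in another. They are 17.6% of the 51 regions that changed in any line (9.57 to 30.3%), against 11.1% of all common regions, and the difference between the lines was not tested. Around JUNB there were 4, around JUND 4 and around JUN 1. At −41.3 kb from JUNB the region was lost in EV and p30 cells, from percentiles 17.8 and 12.4, and gained in p42 cells at 48.7, with 9 tags. At −40.86 kb from JUND it was lost in EV cells, from 21.9, and gained in p30 cells at 48.3, with 20 tags. At −17.7 kb from JUNB it was gained in EV cells at 47.9 and lost in p42 cells from 38.8, with 16 and 15 tags. All 9 lay below the 50th percentile of their list in the line that gained or lost them.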

How the results depend on the processing

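Each of the 18 shares of regions with a peak in only one list was recomputed under 6 alternatives. All 18 stayed within the 95% Wilson interval of the reported share under the depth-scaled threshold and the 100 kb windows, 17 under 20 kb windows, 16 at equal list size, 16 when a peak had to cover 50% of a region and 10 with −log10 q of at least 10. With that stricter list, p30-only regions against p42 after Tm fell to 4.88%, EV-only regions against p42 after Tm to 4.88%, and p30-only and EV-only regions after Tm to 0 of 35 and 8.57%. With Tm, p42 cells lost 7.14%, p30 cells 11.1% and EV cells 2.78%, and p30 cells gained 2.78%. At equal list size, p42-only regions against EV in DMSO were 17.6% and losses with Tm in p42 cells 14.1%. With 50% cover, p30-only regions against p42 in DMSO were 18.5% (against 20% of all regions). Those against EV in DMSO were 33.8%, against 30.9%. This last share also exceeded that of all regions in the stricter list (23.7% against 16.4%) and with 20 kb windows (25.7% against 22.5%). In the stricter list, p42-only regions against p30 after Tm did so too, at 22% against 20.7%. Every other share between lines was no higher than that of all regions. With 20 kb windows, gains with Tm in p30 cells were 3.03%.

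Other shares moved by over 1.5 times but stayed within their interval. In DMSO, p42-only regions against p30 were 12.5% in the stricter list and p30-only regions 14.7% at equal list size. EV-only regions against p42 in DMSO were 5.13% in the stricter list, 5.41% with 20 kb windows and 13.5% at equal list size. After Tm, p30-only regions against EV were 6.45% with 20 kb windows and 18.5% with 50% cover. With 50% cover, p30-only and EV-only regions against p42 after Tm were both 18.8%, and gains with Tm in EV cells 26.2% (against 25.6% of all regions). Gains with Tm also exceeded those of all regions in the stricter list, at 11.9% against 7.57% in p42 cells and 19.4% against 15.1% in EV cells. In p42 cells they did so with the depth-scaled threshold (14.3% against 12.3%) and 20 kb windows (12.5% against 11.6%) as well. Losses with Tm and gains in p30 cells did not in any setting. Without centring, 1 of 54 ratios of p42 to EV in DMSO left 1, at −36.78 kb from JUND (0.586, 0.351 to 0.971). Fewer regions remain in the stricter and smaller settings, and other causes were not tested. No paired analysis was possible because replicates were pooled into 1 list per condition.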
